A study of Arabidopsis thaliana with 4 samples.

Results

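The JAZ (JASMONATE ZIM-DOMAIN) repressors of Arabidopsis thaliana were followed in seedlings of the wild type and of 3 splicing mutants. The genes were chosen by locus identifier as a family, with no threshold on their levels, though earlier results of these data were known: JAZ1, JAZ2, JAZ3, JAZ5, JAZ6, JAZ7, JAZ8, JAZ9, JAZ10 and JAZ12, 10 of the 34133 loci in the deposited table. Positions below are those of the RefSeq annotation of TAIR10.1, since the table itself holds none. Messenger RNA was sequenced from 10-day-old seedlings of the C24 accession, grown on agar medium at 23 °C with 16 h of light and 8 h of dark. The 4 groups were wild type C24 and, in the same accession, the mutants prp31, zop1 and sta1, with 1 library each. The labels give no allele, no transgene and no number of plants for any group, and no jasmonate treatment or wounding. PRP31 and STA1 are proteins of the spliceosome, and ZOP1 is a nucleic acid-binding zinc-finger protein linked to pre-mRNA splicing. With 1 library per group, no difference has a replicate check and no p-value is given, so the values describe these libraries.

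JAZ proteins hold the jasmonate response shut. They bind MYC2 and related transcription factors and recruit the corepressor TOPLESS, through the adaptor NINJA or through a repression motif of their own. When the hormone jasmonoyl-isoleucine accumulates, the F-box receptor COI1 binds the Jas motif near the JAZ C-terminus, and the repressor is ubiquitinated and degraded. The freed MYC factors then switch on jasmonate genes, JAZ genes among them, so that JAZ transcripts serve as a rapid readout of the hormone. In most JAZ genes an intron lies within the stretch that codes for the Jas motif, and transcripts that keep it encode repressors that COI1 binds poorly.

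The Jas intron ties this family to splicing, and its start is therefore shown for each gene that has one. By a search of the annotated coding sequences (TAIR10.1, the Columbia accession), an intron fell inside the Jas stretch in 7 of the 10 genes, and no such intron was found in JAZ1, JAZ7 or JAZ8. Each line gives the last 10 exon bases and the start of the intron, 5′ to 3′ on the strand of the gene, with the GT of the 5′ splice site in capitals.
JAZ2 (chr1:28149080-28149108, minus strand): ggaaggatagGTaatgcattttaatgaaa
JAZ3 (chr3:6122503-6122531, plus strand): gcaaagaaagGTacgcaacacttctttag
JAZ5 (chr1:5956034-5956062, minus strand): ggaaagacagGTatttaaccttatcatac
JAZ6 (chr1:27275046-27275074, minus strand): gaaaagacagGTaaactaaactccgaaac
JAZ9 (chr1:26656619-26656647, plus strand): gcaaagagagGTttgattttgtatttttt
JAZ10 (chr5:4219983-4220011, plus strand): gcaaggagagGTaatgattcttcaacaat
JAZ12 (chr5:7091895-7091923, plus strand): gacgggacagGTatgcagcctttaaaatt
The exon ended in AG in every one of the 7 genes. The intron was 76 bases long in JAZ3, 82 in JAZ9, 92 in JAZ2, 167 in JAZ5, 200 in JAZ12, 470 in JAZ10 and 524 in JAZ6. An annotated transcript that keeps it exists for JAZ2, JAZ5, JAZ6, JAZ9 and JAZ10, where 4 of the 7 annotated transcripts do. The deposited values are 1 per locus and do not separate transcripts, so retention of this intron was not analysed here.

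The libraries held markers of shoot and root. The Rubisco activase gene RCA was between 6225 and 7223 FPKM (fragments mapped to a gene, scaled to transcript length and to the size of the library), and the root gene PYK10 between 1220 and 1490 FPKM. The floral genes AP1, AG and AP3 were at or below 0.502 FPKM. Seed genes differed between the libraries. The storage protein gene CRA1 was at 6.14 FPKM (wild type), 1.63 (prp31), 0.643 (zop1) and 1.47 (sta1). CRC, another storage protein gene, was at 5.37, 3.02, 0.09 and 0.229 FPKM in that order, and the oleosin gene OLEO1 at 1.64, 1.28, 0.349 and 2.88 FPKM. Of these 3 genes 2 were lower by at least 1 on the scale of log2(FPKM + 1) in zop1, 2 in sta1 and 1 in prp31, and their part in the differences given below was not tested. The small-subunit gene RBCS1A, which green tissue uses heavily, was listed at 0 in every library, as were all 279 organelle loci, so a listed 0 is not always a measured absence. The steps between low FPKM values, matched to annotated transcript lengths, gave an estimated depth of 49200000 reads for the wild type. By the same estimate prp31 was deeper, at 54500000 reads, while sta1 had 44300000 reads and zop1 40700000 reads. PRP31 was lowest in the prp31 library (16.4 against 23.2 FPKM in the wild type) and ZOP1 lowest in the zop1 library (7.99 against 14.1 FPKM). STA1 was highest in the sta1 library (18.9 against 14.1 FPKM), and the labels do not say whether its lesion lowers the transcript.

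In wild type seedlings the family was split into 6 genes at 16.0 FPKM or more and 4 genes at 1.58 FPKM or less. JAZ12 (AT5G20900, chr5:7090704-7092539, plus strand), a repressor with a canonical Jas motif, was at 51.0 FPKM (wild type), 48.0 (prp31), 52.1 (zop1) and 47.0 (sta1). JAZ9 (AT1G70700, chr1:26654529-26657350, plus strand) was at 42.6 FPKM (wild type), 41.4 (prp31), 55.3 (zop1) and 45.1 (sta1). JAZ2 (AT1G74950, chr1:28148574-28150446, minus strand) was at 27.2, 29.2, 37.3 and 29.4 FPKM in the same order of libraries. Thus JAZ12 was nearly level across the libraries, while zop1 was the highest library for JAZ9 and for JAZ2.

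JAZ6 (AT1G72450, chr1:27273968-27276562, minus strand) was at 19.8 FPKM (wild type), 20.04 (prp31), 22.3 (zop1) and 21.2 (sta1). JAZ1 (AT1G19180, chr1:6621777-6623668, plus strand), the close relative of JAZ2, was at 20.3, 17.96, 17.87 and 18.9 FPKM in the same order. JAZ3 (AT3G17860, chr3:6119707-6123044, plus strand) was at 16.0, 16.7, 21.5 and 16.8 FPKM. For JAZ1 the wild type was the highest library and zop1 the lowest, the reverse of JAZ2 and JAZ3. The levels of JAZ12, JAZ9 and JAZ2 together made up 66.8% (sta1) to 68.7% (zop1) of the summed FPKM of the family.

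JAZ10 (AT5G13220, chr5:4218786-4221077, plus strand), whose alternatively spliced forms are known to dampen the jasmonate response, was at 1.58 FPKM (wild type), 1.83 (prp31), 2.25 (zop1) and 1.53 (sta1). JAZ5 (AT1G17380, chr1:5955155-5957511, minus strand), the close relative of JAZ6, was at 0.831, 0.829, 1.38 and 1.21 FPKM in that order. JAZ7 (AT2G34600, chr2:14573030-14573952, plus strand) was at 0.859 FPKM (wild type), 0.426 (prp31), 0.572 (zop1) and 0.572 (sta1). The JAZ7 values stood on at least 20, 11, 11 and 12 reads, the smallest whole numbers that give them, and the wild type was the highest library.

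JAZ8 (AT1G30135, chr1:10596352-10597341, plus strand), which lacks a canonical degron and carries its own repression motif, was at 0.226 FPKM (wild type), 0.102 (prp31) and 0.251 (sta1), and was listed at 0 in zop1. These values correspond to at least 2 reads, 1 read and 2 reads. On that footing 0 reads in zop1 allow at most 0.41 FPKM, the level that 3 reads would give. No fold is therefore given for JAZ8. JAZ5, JAZ7, JAZ8 and JAZ10 are among the JAZ genes that jasmonate and wounding are known to induce strongly. Their low levels here are those of seedlings for which the labels name no such treatment.

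**Figure D1:**
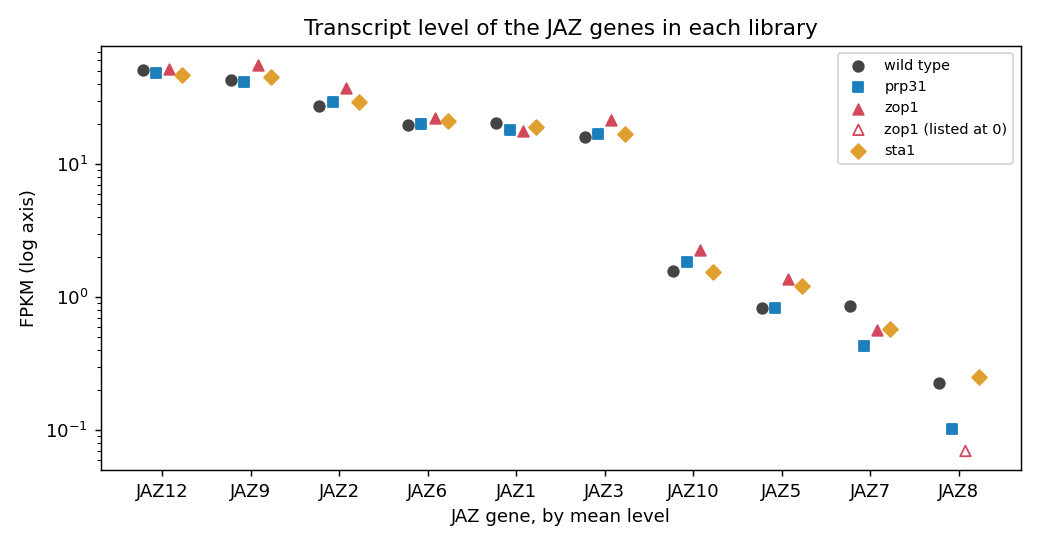
FPKM (log axis) of each JAZ gene in the 4 libraries, 1 point per library, with genes ordered by mean level and the open symbol marking a gene listed at 0. JAZ12, JAZ9, JAZ2, JAZ6, JAZ1 and JAZ3 lay between 16.0 and 55.3 FPKM, and JAZ10, JAZ5, JAZ7 and JAZ8 at or below 2.25 FPKM.

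By mean level over the 4 libraries the order was JAZ12, JAZ9, JAZ2, JAZ6, JAZ1, JAZ3, JAZ10, JAZ5, JAZ7 and JAZ8. The ranges over libraries overlapped between JAZ12 and JAZ9, between JAZ6, JAZ1 and JAZ3, and between JAZ5 and JAZ7, so those neighbours are not ordered beyond the spread of the libraries. They did not overlap between JAZ9 and JAZ2, between JAZ2 and JAZ6, between JAZ3 and JAZ10, between JAZ10 and JAZ5, or between JAZ7 and JAZ8. The ranges leave out counting error, which is large for JAZ5, JAZ7 and JAZ8, so the order of the low genes is less certain. Among the 19240 loci whose mean over the 4 libraries reached 1 FPKM, the level of JAZ12 exceeded that of 86.1% and the level of JAZ3 that of 64.1%, whereas JAZ10 exceeded 7.62%.

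The next question was whether any JAZ transcript differed between a mutant and the wild type. Differences were taken on the scale of log2(FPKM + 1), where low genes show less than their full change, and a locus was counted when the difference reached 1 (the 2-fold rule). Of the 10 JAZ genes 8 reached a mean of 1 FPKM and were compared; JAZ7 and JAZ8 did not. In prp31, 0 of the 8 met the rule, where 0.941% of all compared loci did. In zop1, 0 of the 8 met it, against 2.24% of all loci, and in sta1 0 of the 8, against 1.98%. With 8 genes, shares this small make a count of 0 uninformative about the family.

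The size of the differences says more. The median difference of the 8 genes on the log2(FPKM + 1) scale was 0.35 in zop1, 0.08 in sta1 and 0.01 in prp31, where the median over all compared loci was -0.02, -0.06 and -0.02. In prp31 the 8 differences ran from -0.17 (JAZ1) to 0.14 (JAZ10), and in sta1 from -0.11 (JAZ12) to 0.27 (JAZ5). In zop1 they ran from -0.18 (JAZ1) to 0.44 (JAZ2). Of the 8 genes 7 were above the wild type in zop1, where 46.6% of all loci were. The same 7 genes had their highest level of all 4 libraries in zop1, as did 31.3% of all compared loci. Genes of a family are not independent replicates, and 1 zop1 library stands behind all 7 values.

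**Figure D2:**
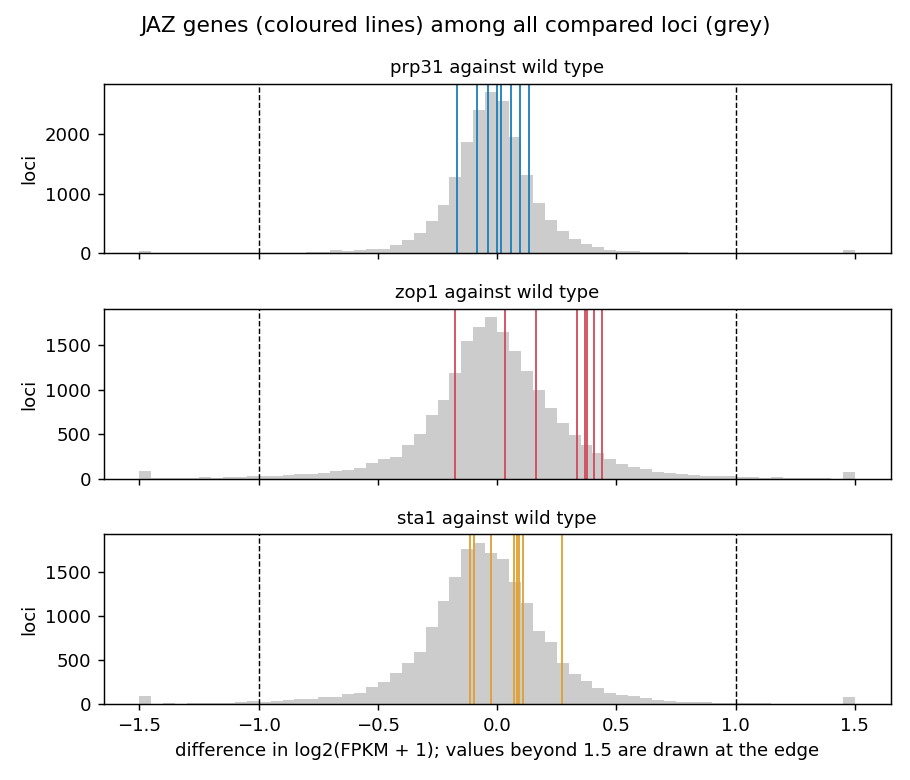
Histograms of the difference from the wild type in log2(FPKM + 1) over all 19240 compared loci (grey), with the 8 compared JAZ genes as coloured lines and dashed lines at the 2-fold rule. In zop1, 5 JAZ genes lay between 0.33 and 0.44, in prp31 all 8 lay between -0.17 and 0.14, and in sta1 between -0.11 and 0.27, where JAZ5 was the highest.

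JAZ2 was 1.37-fold higher in zop1 than in the wild type (95% counting interval 1.28 to 1.47), and 6.11% of compared loci differed upward by more. JAZ3 was 1.35-fold higher (1.24 to 1.46) and JAZ9, of the same branch of the family as JAZ3, 1.30-fold higher (1.22 to 1.38). JAZ10 was 1.42-fold higher in zop1, with an interval of 1.03 to 1.94 on about 78 wild type and 91 zop1 reads. The ratio of JAZ5 was 1.66, but its interval of 0.882 to 3.17, on at least 19 and 26 reads, held 1. More reads than these minimum counts would narrow that interval, so whether it would still hold 1 is not known. JAZ6 was 1.13-fold higher (1.03 to 1.23), and JAZ12 had a ratio of 1.02 (0.961 to 1.09). JAZ1 was 1.14-fold lower (1.04 to 1.24). The intervals cover counting error in 2 libraries, not differences between plants or preparations.

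The zop1 library was also set against each of the other mutants, without the wild type. The ratio of zop1 to sta1 was 1.27 for JAZ2 (1.18 to 1.36), 1.28 for JAZ3 (1.18 to 1.39), 1.22 for JAZ9 (1.15 to 1.30) and 1.47 for JAZ10 (1.05 to 2.03). Against prp31, JAZ2 was 1.28-fold higher in zop1 (1.19 to 1.37), JAZ3 1.29-fold (1.19 to 1.39) and JAZ9 1.34-fold (1.26 to 1.42). Since the zop1 library is shared, these comparisons are not independent of each other. None of the 8 genes met the 2-fold rule between prp31 and zop1, prp31 and sta1, or zop1 and sta1, where 1.99%, 1.67% and 1.36% of all loci did. The median difference of the 8 genes was 0.22 between zop1 and sta1, -0.27 between prp31 and zop1 and -0.04 between prp31 and sta1. By the estimated depths the zop1 library was also the shallowest of the 4, at 40700000 reads. The part of depth in these values was not tested.

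In prp31 and sta1 the well-expressed JAZ genes differed little from the wild type. In prp31 the ratio was 0.884 for JAZ1 (0.815 to 0.958), 0.943 for JAZ12 (0.889 to 0.99997) and between 0.972 and 1.07 for JAZ2, JAZ3, JAZ6 and JAZ9. In sta1 the ratio was 0.923 for JAZ12 (0.867 to 0.983) and 1.08 for JAZ2 (1.003 to 1.16), and those of JAZ1, JAZ3, JAZ6 and JAZ9 lay between 0.931 and 1.07. For these 6 genes every interval in prp31 and sta1 lay inside 0.815 to 1.17. Counting error alone thus left no room for a larger difference between these libraries. Low genes were less certain: JAZ7 was 2.02-fold lower in prp31, with an interval from 4.66-fold lower to 1.09-fold higher. In zop1 and sta1 the JAZ7 ratio was 0.666 and 0.666, with intervals of 0.288 to 1.46 and 0.297 to 1.43.

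**Figure D3:**
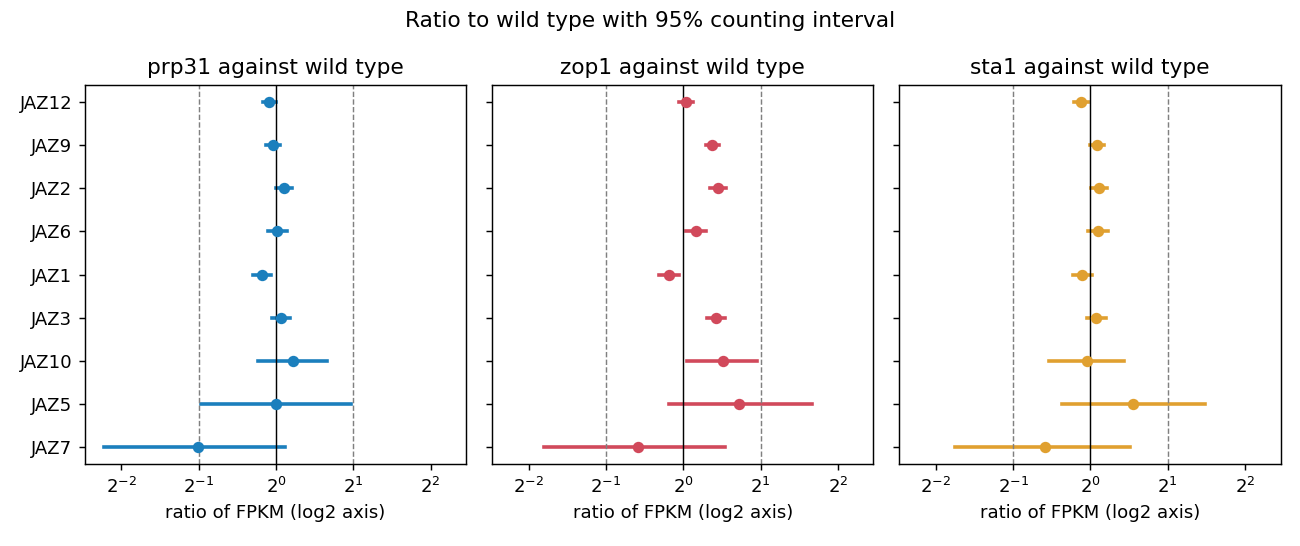
Ratio of FPKM to the wild type (log2 axis) for 9 JAZ genes in each mutant, with 95% counting intervals as bars, a solid line at 1 and dashed lines at 2-fold. JAZ2, JAZ3 and JAZ9 lay at 1.37, 1.35 and 1.30 in zop1 with narrow intervals, and JAZ5 and JAZ7 had wide ones; JAZ8, listed at 0 in zop1, is left out.

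The zop1 ratios can be set beside the Jas intron shown above. The 7 genes with the intron had ratios to the wild type from 1.02 (JAZ12) to 1.66 (JAZ5) in zop1. Of the 3 genes without it, JAZ1 had a ratio of 0.879 and JAZ7 of 0.666, and JAZ8 was listed at 0. In prp31 the ratios of the genes with the intron were 0.943 to 1.16, against 0.884 for JAZ1 and 0.496 for JAZ7. In sta1 they were 0.923 to 1.46, against 0.931 and 0.666, so JAZ1 lay within their range there. JAZ8, on very few reads, was at 0.102 FPKM in prp31 and 0.251 in sta1, against 0.226 in the wild type. The search for the intron covered the 10 genes only. JAZ4 and JAZ11, which were not searched, had ratios of 0.608 (0.467 to 0.779) and 1.03 (0.903 to 1.18) in zop1. Whether the split holds for JAZ genes outside the 10 is therefore not known. The split by intron was seen after the values were known, the intervals of JAZ7 are wide, and no ratio is given for JAZ8. It is given as a description, with no test.

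JAZ2 and JAZ9 had the widest ranges over the 4 libraries, 0.44 and 0.41 on the log2(FPKM + 1) scale. By Euclidean distance between profiles centred on their mean over the 4 libraries, the nearest of 13702 protein-coding loci to JAZ2 were CB5-A (cytochrome b5), AT5G65000, AT4G30750, JAZ3 and PDLP2 (a plasmodesmata-located protein). JAZ3 stood at a distance of 0.0315, and the nearest, CB5-A, at 0.0167. Nearest to JAZ9 were AT4G34290, ACR8, PGL2, AKN2 (adenosine phosphosulfate kinase) and AT3G02250, at distances of 0.00885 to 0.0283. A profile over 4 libraries holds few values, and these distances are a description only.

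JAZ promoters are known targets of MYC2, which binds the G-box. The 250 bases before the annotated start of each gene were searched on both strands for the G-box CACGTG and for the related AACGTG, which reads as CACGTT from the other strand. The G-box was in 4 of the 10 windows (JAZ2, JAZ3, JAZ7 and JAZ8), against 6.49% of 27444 protein-coding genes. AACGTG was in 4 windows (JAZ3, JAZ5, JAZ6 and JAZ12), against 7.54%. The windows of JAZ2 and JAZ3, the G-box genes at well-measured levels, are shown 5′ to 3′ on the strand of the gene, with matches in capitals.
JAZ2 (TAIR10.1, chr1:28150447-28150696, minus strand): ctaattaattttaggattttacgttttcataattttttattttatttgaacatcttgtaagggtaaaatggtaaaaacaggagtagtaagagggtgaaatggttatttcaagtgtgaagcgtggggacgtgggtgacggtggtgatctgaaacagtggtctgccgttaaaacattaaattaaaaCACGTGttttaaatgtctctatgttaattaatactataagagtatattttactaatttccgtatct
JAZ3 (TAIR10.1, chr3:6119457-6119706, plus strand): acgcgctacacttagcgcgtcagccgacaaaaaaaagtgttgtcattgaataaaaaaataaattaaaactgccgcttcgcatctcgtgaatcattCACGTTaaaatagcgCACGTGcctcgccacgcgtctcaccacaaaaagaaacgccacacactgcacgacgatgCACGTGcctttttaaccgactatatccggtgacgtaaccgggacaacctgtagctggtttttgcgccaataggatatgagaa
The G-box of JAZ2 began 66 bases before the annotated start, and those of JAZ3 began 140 and 82 bases before it. Of the other genes with a G-box, JAZ7 was at 0.572 FPKM in zop1 against 0.859 in the wild type. Its ratio of 0.666 had an interval of 0.288 to 1.46, which held 1. JAZ8 was listed at 0 in zop1, where 0 reads allow up to 0.41 FPKM, against 0.226 FPKM in the wild type. Neither gene is measured well enough to give a direction. JAZ9 held neither motif in this window and was higher in zop1. Whether either motif bears on the zop1 levels was not tested. A match describes the letters of the Columbia sequence and shows no binding, and differences of C24 from Columbia were not examined.

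The partners of the JAZ proteins came next. Their lists, and the other jasmonate lists, were drawn up with earlier results of these data known. Over all compared loci 0.941% met the 2-fold rule in prp31, 2.24% in zop1 and 1.98% in sta1. Counts of 0 in lists this short are therefore uninformative, here and in the lists that follow. Of the 10 genes for the receptor complex, NINJA and the TOPLESS family, 0 met the 2-fold rule in any mutant. Their median difference was -0.08 in zop1, -0.09 in sta1 and -0.05 in prp31, with 6, 8 and 8 of the 10 below the wild type. COI1, the receptor, was at 16.5 FPKM (wild type), 15.7 (prp31), 15.4 (zop1) and 15.9 (sta1). TPL, the TOPLESS corepressor, was at 34.3, 35.2, 49.4 and 33.7 FPKM in that order, with zop1 again the highest library. NINJA was lowest in zop1, at 22.1 FPKM (wild type), 20.7 (prp31), 16.9 (zop1) and 18.2 (sta1). Receptor levels were thus close to level, while TPL and NINJA differed in opposite directions in zop1.

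Of 15 listed transcription factor genes 12 were compared, and 0 met the 2-fold rule in any mutant. MYC2, the main target of JAZ repression, was at 40.6 FPKM (wild type), 28.4 (prp31), 26.5 (zop1) and 23.8 (sta1). It was thus highest in the wild type, by 1.43-fold over prp31 (1.36 to 1.50), 1.53-fold over zop1 (1.45 to 1.62) and 1.71-fold over sta1 (1.62 to 1.80). These ratios share the wild type library. MYC3 was at 39.6, 36.1, 34.5 and 34.9 FPKM in the same order. TT8, a bHLH factor of the flavonoid pathway that JAZ proteins bind, was at 0.786 FPKM (wild type), 0.664 (prp31), 1.89 (zop1) and 1.16 (sta1). The median difference of the 12 genes was -0.15 in zop1, -0.25 in sta1 and -0.07 in prp31.

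JAZ genes outside the 10, with other TIFY-domain genes, formed a list of 6, of which 5 were compared and 0 met the rule in any mutant. The median difference of the 5 genes was -0.10 in zop1, -0.25 in sta1 and -0.10 in prp31. In that order 4, 5 and 4 of the 5 were below the wild type. JAZ4, the close relative of JAZ9, was at 3.11 FPKM (wild type), 4.34 (prp31), 1.89 (zop1) and 2.26 (sta1). Its level was therefore lowest in zop1, where JAZ9 was highest. JAZ11 was at 16.3, 15.2, 16.8 and 13.8 FPKM. JAZ13 had at least 1 read in the wild type and in zop1 and was listed at 0 in prp31 and sta1.

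Of 16 jasmonate synthesis genes 15 were compared, and 0 met the rule in any mutant. LOX2, the chloroplast lipoxygenase of jasmonate synthesis, came closest, at 91.1 FPKM (wild type), 181 (prp31), 86.8 (zop1) and 165 (sta1). AOC2, an allene oxide cyclase gene, was at 121, 200, 118 and 209 FPKM in the same sequence of libraries. Both were higher in prp31 and sta1 than in the wild type and zop1, but the list as a whole was not: its median difference was -0.03 in zop1, -0.09 in sta1 and 0.01 in prp31, and 9 of the 15 genes were below the wild type in sta1. AOC3, of the same family as AOC2, was at 12.1 FPKM (wild type), 10.4 (prp31), 8.24 (zop1) and 7.44 (sta1). The 4 AOC genes are close copies whose reads may be split by the authors' processing.

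Among jasmonate breakdown genes 7 of 10 were compared and 1 met the rule. JOX2, which hydroxylates jasmonic acid, was at 4.06 FPKM (wild type), 4.02 (prp31), 10.8 (zop1) and 6.83 (sta1). It was 2.65-fold higher in zop1 (2.27 to 3.10). The median difference of the 7 genes was 0.33 in zop1, 0.50 in sta1 and 0.09 in prp31. ILL6, an amidohydrolase that cleaves jasmonoyl-isoleucine, was at 2.53, 3.32, 4.88 and 4.39 FPKM in the order wild type, prp31, zop1 and sta1.

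Of 7 output genes 6 were compared. In sta1 1 met the rule upward (PDF1.2A) and 1 downward (TAT3), in prp31 1 upward (PDF1.2A), and in zop1 0. TAT3, a tyrosine aminotransferase gene of the MYC2 branch, was at 4.13 FPKM (wild type), 3.96 (prp31), 3.56 (zop1) and 1.13 (sta1). The defensin gene PDF1.2A, of the branch driven by ethylene and jasmonate together, was at 0.0869 FPKM in the wild type from a recovered count of 1 read, and at 2.04, 0.736 and 1.64 FPKM in prp31, zop1 and sta1. The vegetative storage protein gene VSP2 was at 1.51, 3.92, 2.48 and 3.71 FPKM in the wild type, prp31, zop1 and sta1. The median difference of the 6 genes was 0.28 in zop1, -0.04 in sta1 and 0.30 in prp31, with 4, 3 and 5 of the 6 above the wild type. CORI3, the output gene with the highest level, was at 151 FPKM (wild type), 182 (prp31), 208 (zop1) and 171 (sta1).

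Most of the listed genes known to respond within minutes to wounding, touch or elicitors were lower by the 2-fold rule in zop1 and in sta1. Of 12 listed genes 10 were compared, and 7 met the rule in zop1, 7 in sta1 and 1 in prp31, all of them lower. The touch genes TCH2, TCH3 and TCH4 did not meet it in any mutant, and TCH3 was at 46.5 FPKM (wild type), 48.2 (prp31), 27.8 (zop1) and 35.6 (sta1). The median difference was -1.29 in zop1, -1.29 in sta1 and -0.50 in prp31. Several of these genes entered the list because earlier results had shown them low, so the direction is not independent evidence. ORA47, an AP2/ERF factor that activates jasmonate synthesis genes, was at 6.94 FPKM (wild type), 2.002 (prp31), 0.895 (zop1) and 1.49 (sta1). ZAT10 was at 33.9, 19.2, 3.51 and 5.76 FPKM in that order, and CAF1a at 34.5, 21.0, 4.26 and 4.78 FPKM. WRKY40, WRKY33, ZAT12 and ERF104, were lower by the rule in both zop1 and sta1. The 6 well-expressed JAZ genes stood at 0.879 to 1.37 times the wild type in zop1 and at 0.923 to 1.08 times in sta1. In zop1 and sta1 the ratio was 1.66 and 1.46 for JAZ5, 1.42 and 0.971 for JAZ10, and 0.666 in both for JAZ7. The intervals of JAZ5 and JAZ7, taken on the smallest whole numbers of reads, held 1. JAZ8 was listed at 0 in zop1 and was at 0.251 FPKM in sta1, against 0.226 in the wild type. Given how the wound and touch list was chosen, no contrast with the JAZ genes is drawn.

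**Figure D4:**
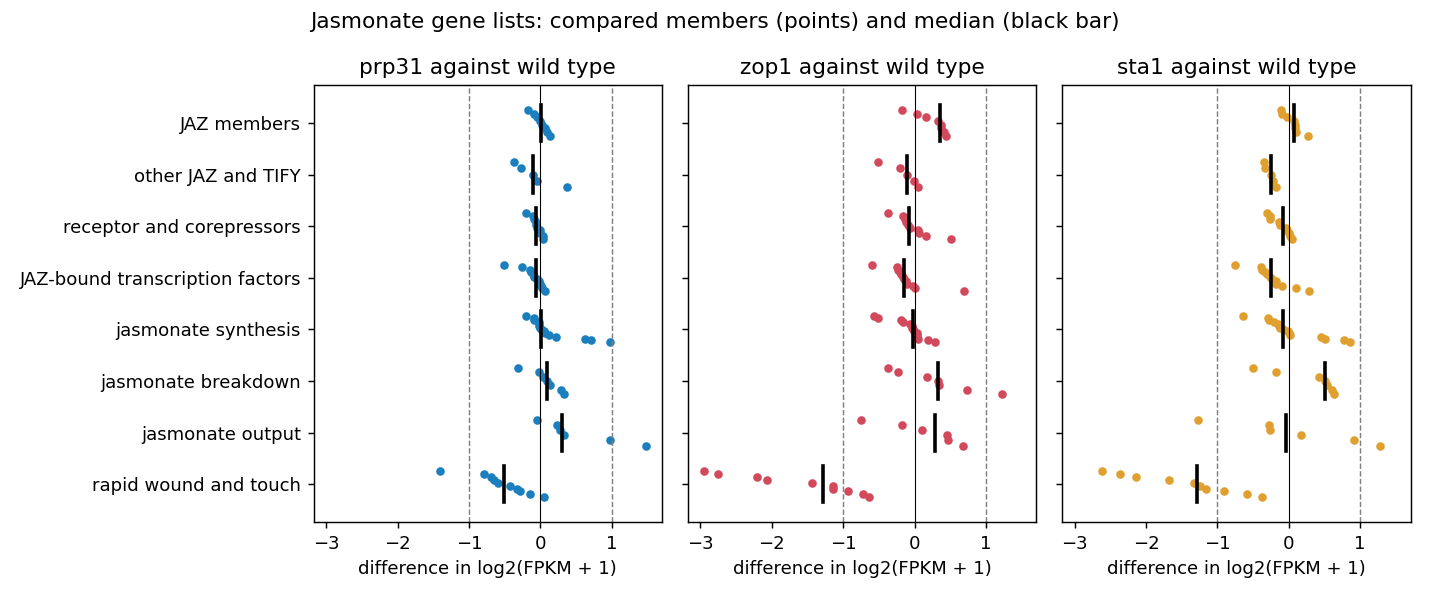
Difference from the wild type in log2(FPKM + 1) for the compared genes (points) of the JAZ family and 7 further lists, with the list median as a black bar and dashed lines at the 2-fold rule. The rapid wound and touch genes had medians of -1.29 in zop1 and sta1, and the JAZ genes medians of 0.35 and 0.08. Several wound and touch genes were listed because earlier results had shown them low, so no contrast with the JAZ genes is drawn.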

How the data were processed

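The authors deposited 1 table of FPKM values for 34133 loci, in which each library has its own column. The submitters' processing notes name TopHat2 2.0.12, Bowtie, Cufflinks 2.0.1 with Cuffdiff, and TAIR10; for settings and strandedness, the answer is not given in the sources used here. JAZ10 and JAZ12 overlap annotated genes on the opposite strand (JAZ12 by 28 bases of AIP2), whose reads were not told apart. No stretch of 50 bases was shared between a transcript of the 10 genes and any other JAZ or TIFY transcript.

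Groups followed the titles. Values were compared as log2(FPKM + 1) where the mean over libraries reached 1 FPKM. The members and lists were chosen with earlier results of these data known. All 10 JAZ genes are named; of each other list, the genes past the 2-fold rule or the largest change, and other genes named here were chosen after their values were seen. The 5 nearest profiles came from loci whose mean reached 5 FPKM.

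Low FPKM were whole multiples of the worth of 1 read, which gave reads for JAZ2, JAZ5, JAZ6, JAZ7, JAZ8 and JAZ12. A divisor shared by the libraries cannot be seen, so these are lower bounds and their intervals are, if anything, too wide. For JAZ5 and JAZ8 the recovered reads imply lengths of 465 and 180 nt. Their shortest annotated transcripts are 1348 and 806 nt, so the reads of these genes may well be undercounted. For JAZ1, JAZ3, JAZ9 and JAZ10 reads were implied by the shortest annotated transcript less 204 nt. That offset and the depths were the pair that matched the most single-transcript loci (520 of 4659). Ratio intervals are exact binomial and cover counting error only. Sequences and positions are from the TAIR10.1 RefSeq genome. Python 3.11.15, scipy 1.17.1 and Biopython 1.88 were used, and the steps were tested on simulated data.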

Additional observations from a re-analysis of the deposited data

How the results depend on the processing

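No paired analysis was possible because each group has 1 library. Alternatives were a pseudocount of 0.1 or 5, no filter on low values, a mean of at least 5 FPKM, and median-of-ratios scaling. None of the compared JAZ genes met the 2-fold rule under any of them, in any of the 6 comparisons. The zop1 median of 0.35 against the wild type was 0.14 with a pseudocount of 5, which shrinks differences by construction; it was 0.25 with no filter, where 10 genes enter. The prp31 against zop1 median of -0.27 was -0.13 with a pseudocount of 5. The small prp31 median of 0.01 against the wild type was -0.02 with no filter and -0.01 with the stricter filter, so it has no stable sign. Under median-of-ratios scaling JAZ5 in prp31 (from -0.0019 to 0.01) and JAZ10 in sta1 (from -0.03 to 0.0099) changed sign. The same scaling moved the sta1 median from 0.08 to 0.13, JAZ12 in sta1 from -0.11 to -0.06 and JAZ2 in sta1 from 0.11 to 0.16. The counting intervals do not cover this choice of scale. 

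The count of all loci past 2-fold followed the pseudocount and filter. With a pseudocount of 0.1 it was 678 in zop1 and 619 in sta1 against the wild type, 627 for prp31 against zop1, 496 for prp31 against sta1 and 426 for zop1 against sta1. With a pseudocount of 5 it was 180 in zop1, 180 in sta1 and 101 in prp31 against the wild type, and 174, 153 and 125 for the same pairs of mutants. With a mean of at least 5 FPKM, fewer loci enter, and it was 282, 239 and 94, and 250, 200 and 152, in the same order. The main counts, in that order, were 431, 381 and 181, and 382, 322 and 261. Depth limits JAZ5, JAZ7 and JAZ10, whose counting intervals are wide, and JAZ8, for which no fold is given.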
